A study of Mus musculus with 2 samples.

Results

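The B7 family ligands are cell surface proteins that T cells read when an antigen is presented to them. CD80 and CD86 bind CD28 to activate T cells and bind CTLA-4 to restrain them, and ICOS ligand activates T cells through ICOS. PD-L1 (encoded by Cd274) and PD-L2 (encoded by Pdcd1lg2) bind the inhibitory receptor PD-1, and CD80 can also bind PD-L1 on the same cell. B7-H3 (encoded by Cd276) and B7-H4 (encoded by Vtcn1) lack an agreed receptor and are mostly described as inhibitors of T cells. In adipose tissue these proteins are known mainly from macrophages and dendritic cells, while PD-L1 and B7-H3 are also made by cells that are not of the immune system.

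The family comprised 7 genes of the 24091 listed in the deposited table, Cd80, Cd86, Cd274, Pdcd1lg2, Icosl, Cd276, and Vtcn1, and all 7 were found by symbol. The family was chosen from earlier results of these same libraries, in which Cd80 was among the genes with the largest increase, so the values of the members are given as a description and without a test. There were 2 RNA sequencing libraries of cultured cells labelled primary adipocytes, from gonadal fat of C57BL/6 mice, 1 from sham-irradiated mice (labelled no radiation, here the sham library) and 1 from mice given pelvic radiation. The labels state 7.5 Gy and 5 days and leave unclear whether that dose was given daily or in all. Both titles name PBS without saying what it was given for, and no other allele or agent is named. The fat was taken 2 months after radiation, and the cells that floated after collagenase digestion were cultured for 3 days. The sex and number of mice were not given in the sources used here, and with 1 library per condition no difference has a replicate check.

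The values are FPKM, the fragments on a gene scaled to 1 kilobase of its length and to 1000000 fragments of the library, and the authors deposited log2(FPKM + 0.1). Differences are the deposited log2 value of the irradiated library minus that of the sham library, and on this scale differences of low genes come out too small. The steps between low values gave a depth of 30578000 fragments for the sham library and 34996000 for the irradiated library, and hence the fragments on each gene. Intervals are 95% counting intervals of the recovered fragments. They cover counting error only, since PCR copies are not independent molecules and the spread between mice and cultures is not included. In bulk RNA, a smaller number of cells of a type and less RNA per cell cannot be told apart. The label was checked against adipocyte genes. Adipoq, which encodes adiponectin, had an FPKM of 0.133 and 0.232 in the sham and irradiated libraries, respectively, and Fabp4, a fatty acid carrier also found in macrophages, 96.9 in both, while the lipase gene Lpl had 68.0 and 66.6 and the adipocyte regulator Pparg 4.59 and 4.69, both named after their values were seen. The fibroblast collagen gene Col1a1 had 1937 and 1428. The macrophage gene Lyz2 had an FPKM of 442.5 and 410.05, and the libraries are thus cultures in which macrophage and fibroblast RNA was abundant and 4 of 7 adipocyte genes (Adipoq, Plin1, Cidec, and Lep) were under an FPKM of 1.

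The promoters of the members that were higher at adequate depth, Cd80 and Cd274, are shown with that of Pdcd1lg2, the neighbor of Cd274. Pdcd1lg2 had 18 and 21 fragments, too few to tell whether it shared the difference of Cd274. Each is the 250 bases before the gene start in RefSeq (GRCm38.p6), 5′ to 3′ on the gene's strand, and capitals mark matches to the motifs searched. The Cd80 stretch is chr16:38458683-38458932 on the + strand. It precedes the start of the RefSeq entry, which lies 3372 bases inside the gene start given in the file, and it is intronic in the longest Cd80 transcript of GENCODE M21. The Cd274 stretch is chr19:29367188-29367437 and the Pdcd1lg2 stretch is chr19:29410669-29410918, both on the + strand and both just upstream of the gene start in the file.
Cd80: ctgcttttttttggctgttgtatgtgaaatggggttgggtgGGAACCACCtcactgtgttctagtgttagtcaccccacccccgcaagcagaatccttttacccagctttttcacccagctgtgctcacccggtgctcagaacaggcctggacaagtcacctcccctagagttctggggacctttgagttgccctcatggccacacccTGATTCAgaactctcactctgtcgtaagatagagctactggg
Cd274: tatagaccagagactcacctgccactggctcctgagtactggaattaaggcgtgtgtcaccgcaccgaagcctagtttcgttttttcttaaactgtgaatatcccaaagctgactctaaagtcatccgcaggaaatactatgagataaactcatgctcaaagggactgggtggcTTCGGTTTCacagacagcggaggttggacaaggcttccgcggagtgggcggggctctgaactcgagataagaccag
Pdcd1lg2: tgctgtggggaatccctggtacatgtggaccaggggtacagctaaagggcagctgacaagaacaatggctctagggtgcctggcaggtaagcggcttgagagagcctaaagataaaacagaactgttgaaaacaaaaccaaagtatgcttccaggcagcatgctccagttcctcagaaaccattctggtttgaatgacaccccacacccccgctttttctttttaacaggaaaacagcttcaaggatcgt

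The motifs searched on both strands were an interferon regulatory factor element, GAAANNGAA, a STAT (GAS) element, TTCNNNGAA, a κB-like site, GGNNNTTCC, and an AP-1 site, TGANTCA. The first 3 patterns can overlap each other. Cd274 held 1 match to the interferon regulatory factor element, on the minus strand from base -76 to -68, counted back from the base before the gene start. This motif was present in 7.13% of the 32851 RefSeq promoters of the same length. Cd80 held an AP-1 match from base -42 to -36, present in 6.75% of promoters, and a κB-like match from base -209 to -201, present in 15.7%. Pdcd1lg2, Icosl, and Vtcn1 held no match to any of the 4 motifs, and Cd276 held a κB-like match from base -146 to -138. The STAT element, present in 7.02% of promoters, was not matched in any of the 6 members with a promoter sequence. Base composition differed between the members. The promoter of Cd276 had a GC content of 77.6% with 29 CpG dinucleotides and that of Icosl 68.8% with 23, against a median of 52.4% and 6 over all promoters. The GC content of the other 4 promoters lay between 48.4% (Pdcd1lg2) and 52.8% (Cd80), and their CpG number between 3 (Cd80 and Pdcd1lg2) and 11 (Cd274). The Cd276 stretch lies wholly in an exon of a longer GENCODE transcript of Cd276, and 66 bases of the Icosl stretch lie in an exon of an Icosl transcript. These matches are a description of the sequence and not of binding.

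Cd80 was higher in the irradiated library, and Cd274 was higher by less. Cd276 and Icosl were lower, Cd86 and Pdcd1lg2 had intervals that included 0, and Vtcn1 was higher with an interval above 0 but on 1 and 14 fragments. The summed FPKM of the family was 22.3 in the sham library and 29.6 in the irradiated library. Cd80 gained 5.91 FPKM and Cd274 gained 3.61, while Cd276 decreased by 2.00. An FPKM of 1 was reached in either library by 3 of the 7 members, Cd80, Cd274, and Cd276, and by 11253 of the 24091 genes. Among these 3 members, 1 was higher by at least 1 on the log2 scale and 0 were lower by as much, whereas 0.791% of the 11253 genes were higher and 0.373% were lower by that amount. The interval lay above 0 for 2 of the 3 and below 0 for 1, beside 23.8% and 17.4% of the 11253 genes, respectively. Since the family was selected on the difference of Cd80, nothing is read from these shares. The median difference of the 3 members was 0.70 and that of the 11253 genes was 0.02.

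**Figure D1:**
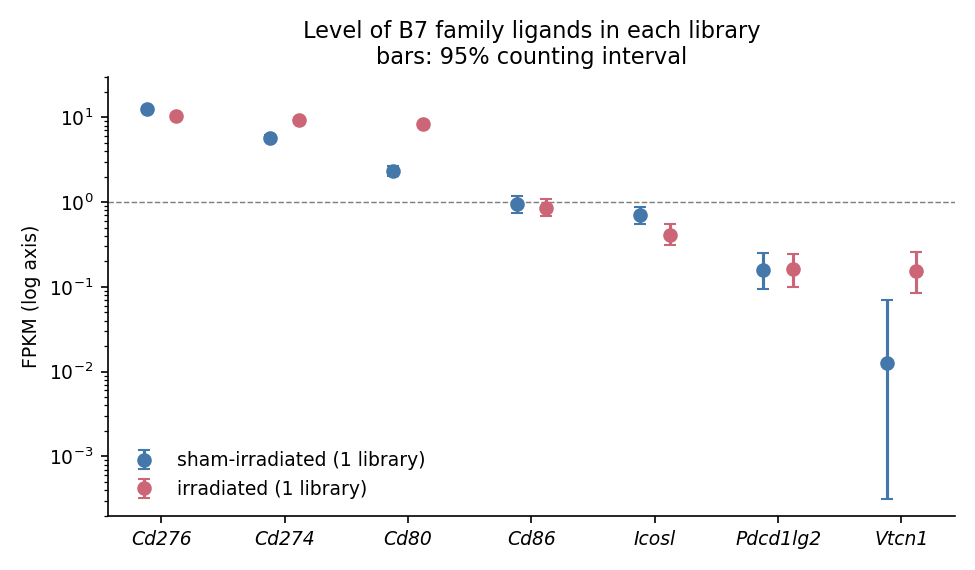
FPKM (log axis) of the 7 B7 ligands in the sham-irradiated (blue) and irradiated (red) libraries, with 95% counting intervals as bars and a dashed line at an FPKM of 1. Cd80 stood at 2.33 and 8.24, Cd274 at 5.68 and 9.28, and Cd276 at 12.5 and 10.5, while the other 4 members were under the line in both libraries.

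Cd80 encodes the costimulator that binds both CD28 and CTLA-4 and is induced on activated antigen-presenting cells. The gene (chromosome 16 from 38455561 to 38495739, + strand) had an FPKM of 2.33 (interval 2.03 to 2.66, 221 fragments) in the sham library and 8.24 (7.71 to 8.80, 894 fragments) in the irradiated library. The intervals of the libraries did not overlap. The difference was 1.78 on the log2(FPKM + 0.1) scale, and the ratio of fragments per library total was 3.53-fold (interval 3.05 to 4.11). Of the 11253 genes, 15 had a larger difference. Cd80 went from 10.5% of the summed FPKM of the family to 27.9%.

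Cd86 encodes the other ligand of CD28 and CTLA-4 and is usually present on resting antigen-presenting cells. The gene lies 1789.5 kb before Cd80 on chromosome 16 (from 36603869 to 36666077, minus strand). It had an FPKM of 0.942 (0.739 to 1.19, 73 fragments) in the sham library and 0.859 (0.676 to 1.07, 76 fragments) in the irradiated library. The ratio was 0.910-fold, with an interval from 0.651 to 1.27, so no difference was detectable for Cd86 at this depth. The FPKM of Cd80 was 2.47 times that of Cd86 in the sham library and 9.59 times in the irradiated library. In each library the intervals of these neighboring ranks did not overlap, so Cd80 was the more abundant of the pair per length in both.

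Cd274 encodes PD-L1, an inhibitory ligand that is induced by interferons on many cell types. The gene (chromosome 19 from 29367438 to 29388094, + strand) had an FPKM of 5.68 (5.24 to 6.14, 630 fragments) in the sham library and 9.28 (8.76 to 9.83, 1180 fragments) in the irradiated library. The difference was 0.70 and the ratio was 1.64-fold (1.48 to 1.81). A larger difference was found for 233 of the 11253 genes. Cd274 was thus higher in the irradiated library, on a lesser scale than Cd80.

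Pdcd1lg2 encodes PD-L2, the second ligand of PD-1, which is mostly restricted to dendritic cells and macrophages. The gene starts 22.8 kb after the end of Cd274 (chromosome 19 from 29410919 to 29472927, + strand). It had an FPKM of 0.159 (18 fragments) in the sham library and 0.161 (21 fragments) in the irradiated library, a ratio of 1.02-fold (0.517 to 2.03). At 18 and 21 fragments, a change as large as that of Cd274 lies within the interval. The gene overlaps A930007I19Rik on the opposite strand, which had 29 and 27 fragments, and the counting is not stated to have used strand, so the fragments of these genes may not be separable.

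Icosl encodes ICOS ligand, which is found on B cells, macrophages, and some cells outside the immune system. The gene (chromosome 10 from 78069368 to 78079525, + strand) had an FPKM of 0.696 (0.545 to 0.874, 73 fragments) in the sham library and 0.414 (0.309 to 0.548, 50 fragments) in the irradiated library. The difference was -0.63 and the ratio was 0.598-fold (0.409 to 0.869). The interval of the ratio lay below 1, although the intervals of the levels overlapped slightly.

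Cd276 encodes B7-H3, which fibroblasts and other stromal cells express. The gene (chromosome 9 from 58524300 to 58555132, minus strand) was the most abundant of the family in both libraries, with an FPKM of 12.5 (11.8 to 13.2, 1252 fragments) in the sham library and 10.5 (9.87 to 11.1, 1203 fragments) in the irradiated library. The difference was -0.25 and the ratio was 0.840-fold (0.775 to 0.909). Its part of the summed FPKM of the family was 55.9% in the sham library and 35.4% in the irradiated library. Of the 6 fibroblast markers, 3 genes, Col1a1, Col3a1, and Pdgfra, had intervals below 0 as well, with differences of -0.44, -0.33, and -0.37, beside 17.4% of the 11253 genes. The other markers, Dcn (0.01), Lum (0.01), and Dpt (-0.05), had intervals that included 0, and the part of fibroblast RNA in the value of Cd276 was not tested. The markers other than Col1a1 were named after their values were seen.

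Vtcn1 encodes B7-H4, which is best known from epithelial cells. The gene (chromosome 3 from 100825459 to 100896922, + strand) had 1 fragment in the sham library and 14 fragments in the irradiated library, an FPKM of 0.0127 and 0.153. The ratio had an interval from 1.86 to 517-fold, so its size is not known beyond the lower bound. The mesothelial markers, which mark an epithelial lining, had higher values for 4 of 5 genes in the same library, beside 53.5% of the 11253 genes. Of the 5 markers, 3 were higher by at least 1 on the log2 scale, beside 0.791% of the 11253 genes. Msln (mesothelin) had an FPKM of 0.520 and 2.71, and Wt1, a transcription factor of mesothelium, had 20.4 and 18.7. Their part in the value of Vtcn1 was not tested.

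The order of levels per length was Cd276, Cd274, Cd80, Cd86, Icosl, Pdcd1lg2, and Vtcn1 in both libraries. In the sham library the intervals overlapped for only 1 pair of neighbors in that order, Cd86 and Icosl. In the irradiated library they overlapped for Cd274 and Cd80, at 31.4% and 27.9% of the summed FPKM, and for Pdcd1lg2 and Vtcn1.

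**Figure D2:**
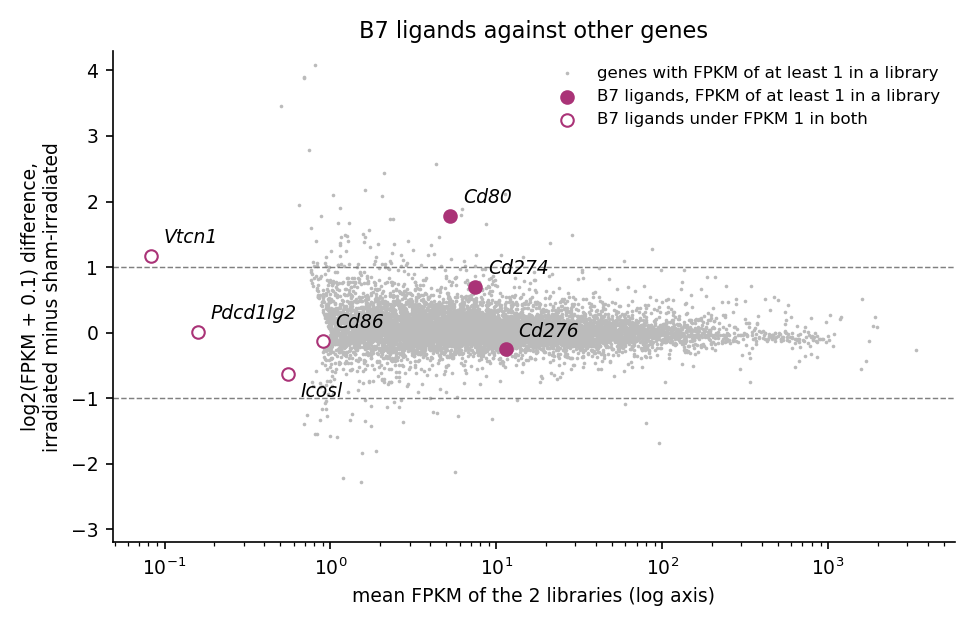
Difference between the libraries on the log2(FPKM + 0.1) scale against mean FPKM (log axis) for the 11253 genes that reached an FPKM of 1 (grey), the 3 B7 ligands among them (filled), and the 4 under that level (open). Cd80 (1.78) stood above the dashed line at 1, Cd274 (0.70) below it, and Cd276 (-0.25) below 0.

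How far each member followed Cd80 was described by the ratio of its fragments to those of Cd80, which does not depend on library size. On the log2 scale, the ratio of Cd274 to Cd80 was lower by 1.11 in the irradiated library (difference -1.11, interval -1.37 to -0.85). Cd274 was therefore the nearest to Cd80 of the members with more than 20 fragments in each library. The ratio differed by -1.96 for Cd86 (-2.49 to -1.42), by -2.07 for Cd276 (-2.32 to -1.83), and by -2.56 for Icosl (-3.15 to -1.98). The ratio of Pdcd1lg2 to Cd80 differed by -1.79, with the wider interval of -2.80 to -0.77. The intervals of these 5 members all lay below 0. Since Cd80 was picked for its large difference, lower ratios to it were to be had from nearly any gene, and nothing is read from their sign. The ratio of Vtcn1 to Cd80 had an interval from -0.94 to 7.20 and could not be placed.

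The macrophage markers were also compared with the members, since macrophages are a usual source of Cd80 and Cd86. Of 12 macrophage markers, all at an FPKM of at least 1, 10 were higher and 2 were lower in the irradiated library, with a median difference of 0.41, beside 53.5% higher and a median of 0.02 over the 11253 genes. The interval lay above 0 for 8 of the 12 and below 0 for 1, Lyz2, beside 23.8% and 17.4% of the 11253 genes, respectively. The complement genes C1qa and C1qc both had a difference of 0.80, the lysosomal protein gene Cd68 had 0.71, and the mannose receptor gene Mrc1 had 0.53, all 4 named after their values were seen. The summed FPKM of the 12 markers was 617.3 in the sham library and 658.05 in the irradiated library. Adgre1, which encodes the macrophage surface protein F4/80, had 15.7 and 15.5, and the marker with the largest level, Lyz2, had a difference of -0.11, and these were the 2 lower markers. Relative to the summed fragments of the 12 markers, Cd80 was higher by 1.68 on the log2 scale (1.46 to 1.90) in the irradiated library and Cd274 by 0.57 (0.43 to 0.71). Without Lyz2, these values were 1.47 (1.25 to 1.69) and 0.35 (0.21 to 0.50). The value of Cd86 relative to the 12 markers was -0.28 (-0.76 to 0.21), and without Lyz2 it was -0.49 (-0.98 to -0.01). The difference of Cd80 and of Cd274 was thus larger than that of the summed markers under both sums. The difference of Cd274 (0.70) was below those of the single markers C1qa, C1qc, and Cd68, whereas that of Cd80 (1.78) was above that of each of the 12. Cd80 was picked for its large difference, so nothing is read from its place above the markers. The part of macrophages in these values was not tested. Dendritic cell markers were low. Of 8 such genes, 7 did not reach an FPKM of 1, Flt3 had 12 and 5 fragments, and Itgax, shared with macrophages, had an FPKM of 2.36 and 2.35.

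**Figure D3:**
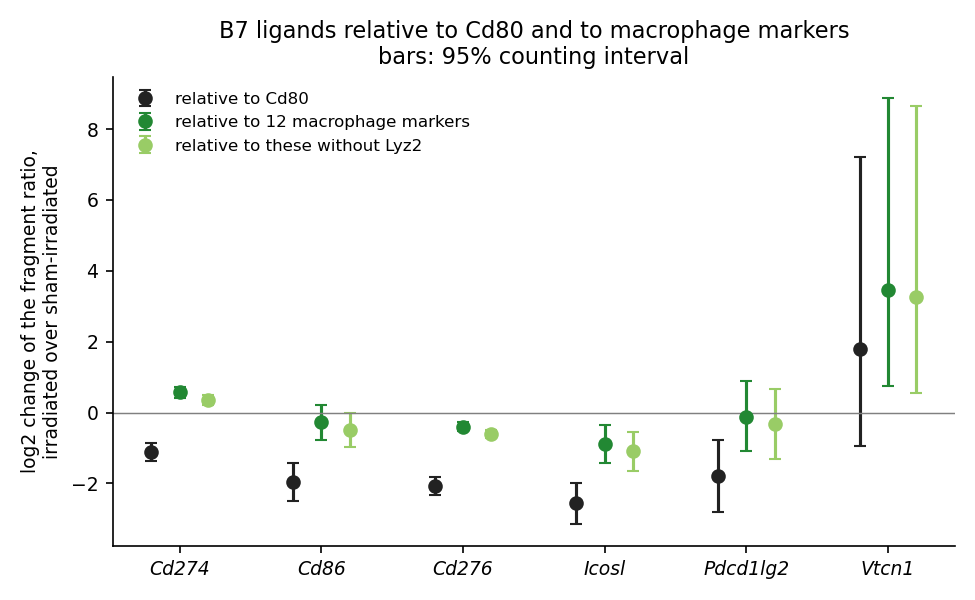
Change of the ratio of fragments, irradiated over sham-irradiated on the log2 scale, for 6 members relative to Cd80 (black), to 12 macrophage markers (green), and to these markers without Lyz2 (light green), with 95% counting intervals as bars. Relative to Cd80, 5 members lay below 0, from -1.11 (Cd274) to -2.56 (Icosl), whereas relative to the markers Cd274 lay above 0.

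The receptors that the B7 ligands bind were present at low levels. Cd28, Icos, Ctla4, and Pdcd1, the 4 that T cells carry, did not reach an FPKM of 1 in either library and were named after their values were seen. Cd28, the activating receptor of CD80 and CD86, had 25 fragments in the sham library and 53 in the irradiated library (log2 ratio 0.89, interval 0.18 to 1.64). The other three were lower in the irradiated library. Pdcd1, which encodes PD-1, had 44 and 18 fragments (log2 ratio -1.48, -2.36 to -0.66), Ctla4 had 17 and 7 (-1.47, -2.99 to -0.13), and Icos had 29 and 17 (-0.97, -1.92 to -0.05). Of the 2 activating receptors, Cd28 was therefore higher and Icos lower, and both inhibitory receptors were lower, all on few fragments. Over the 11253 genes at an FPKM of at least 1, the interval lay above 0 for 23.8% and below 0 for 17.4%. These 4 receptors were under that level, where no share was computed, so nothing is read from their number. Rgmb, a coreceptor for bone morphogenetic proteins that also binds PD-L2, was the only receptor of the 5 listed to reach an FPKM of 1, with 3.53 and 4.28 and a difference of 0.27.

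The summed lymphocyte markers were lower in the irradiated library, as were the 3 receptors, but most single markers had intervals that included 0. The 6 T and NK cell markers were all under an FPKM of 1, with 86 fragments in sum in the sham library and 67 in the irradiated library (log2 ratio -0.55, -1.04 to -0.08). Cd3e, a chain of the T cell receptor complex, had 18 and 13 fragments, and Cd2, the marker with the highest level, had 24 and 27. Cd3d, named after its value was seen, was the only one of the 6 with an interval below 0 (15 and 4 fragments). The 4 B cell markers had 67 and 31 fragments in sum (log2 ratio -1.31, -1.97 to -0.67). Cd79a, part of the B cell receptor, had 29 and 8 fragments. Cd79b, its partner (18 and 7), also had an interval below 0, while Ms4a1 (20 and 14) and Pax5 (0 and 2) did not, and these 3 were named after their values were seen. Icosl, which B cells express, was lower in the same library, with 73 and 50 fragments. Over the 11253 genes at an FPKM of at least 1, the interval lay below 0 for 17.4%. All these lymphocyte markers were under that level, where no share was computed, so nothing is read from their counts. The part of lymphocytes in the values of Icosl and of the receptors was not tested.

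**Figure D4:**
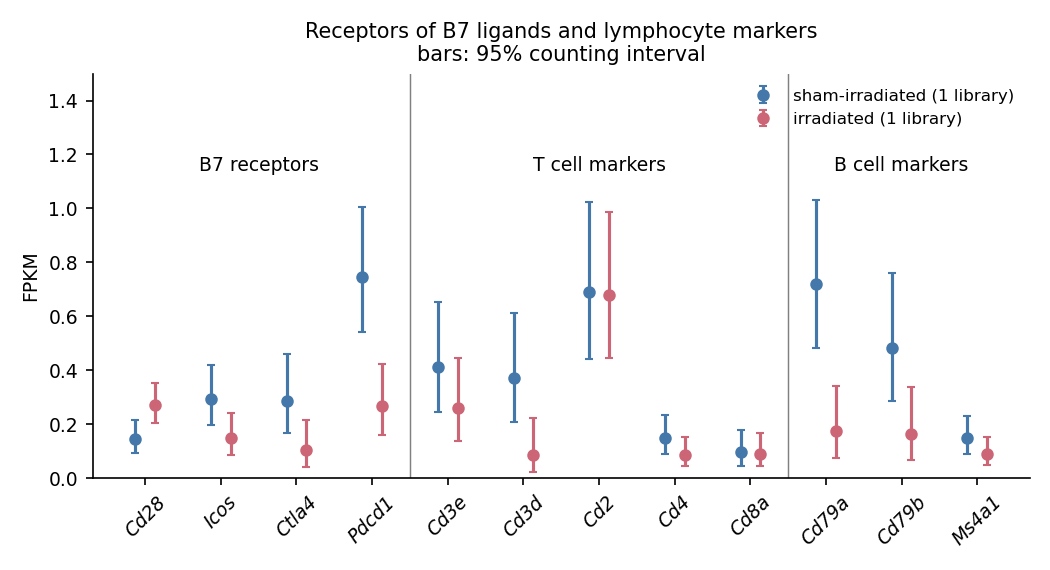
FPKM of 4 receptors of B7 ligands, 5 T cell markers, and 3 B cell markers in the sham-irradiated (blue) and irradiated (red) libraries, with 95% counting intervals as bars. Cd28 was higher in the irradiated library (0.147 and 0.271), whereas Pdcd1 (0.747 and 0.266) and Cd79a (0.718 and 0.174) were lower.

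Other genes of the pathway that reached an FPKM of 1 differed less than Cd80. Of 9 B7-like and butyrophilin genes, 2 reached an FPKM of 1 and both were higher in the irradiated library. Over the 11253 genes, 53.5% were higher, and on 2 genes nothing is read from this. Vsir, which encodes the checkpoint protein VISTA, had an FPKM of 2.89 and 4.13 (difference 0.50), and Ildr2, a B7-like inhibitor of T cells, had 6.13 and 7.42 (difference 0.27). Vsig4, a B7-related receptor of tissue macrophages named after its value was seen, had 5 and 29 fragments and a difference of 1.67. No fragments were found in either library for 4 genes of the list. Of all 24091 genes, 7656 had none in the sham library and 7359 had none in the irradiated library. Of 8 other checkpoint ligands at an FPKM of at least 1, 6 were higher and 1 was lower, with a median difference of 0.11, beside 53.5% higher over the 11253 genes. The interval lay above 0 for 4 of the 8 and below 0 for 0, beside 23.8% and 17.4% of the 11253 genes, respectively. Cd200, which restrains myeloid cells, had an FPKM of 2.52 and 4.10 (difference 0.68), the largest of that list. Tnfrsf14, the ligand of the inhibitory receptor BTLA, had 2.30 and 2.12, with an interval that included 0. Cd47, a signal against engulfment by macrophages, had the highest level at 69.0 and 70.4.

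Genes of antigen-presenting cell activation had a mixed pattern. Of 9 listed, 5 reached an FPKM of 1, of which 3 were higher and 2 were lower, with a median difference of 0.29. Over the 11253 genes, 53.5% were higher and the median was 0.02. Icam1, an adhesion ligand of T cells, had an FPKM of 8.72 and 12.9 (difference 0.56). Ccr7, which guides dendritic cells to lymph nodes, had 1.48 and 1.15, with an interval of the log2 ratio from -0.82 to 0.09. Cd40, an activating receptor of antigen-presenting cells named after its value was seen, had 1.38 and 1.36. The antigen presentation genes Cd74 (0.29, interval 0.05 to 0.54) and H2-Ab1 (0.44, interval -0.01 to 0.93) were also named after their values were seen. Of the 5, the interval lay above 0 for 2, Icam1 and Cd74, and included 0 for the others, beside 23.8% above 0 over the 11253 genes. On 5 genes, nothing is read from these counts.

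Interferon-γ and NF-κB signaling are the best known inducers of Cd274 and Cd80, respectively. Ifng itself, named after its value was seen, had 0 fragments in both libraries, which allows an FPKM of up to 0.0814 and 0.0711, respectively. Of 8 genes of interferon-γ signaling at an FPKM of at least 1, 3 were higher and 5 were lower, with a median difference of -0.065. Irf1, a transcription factor that acts on the Cd274 promoter, had an FPKM of 9.35 and 10.5 (difference 0.16), and the receptor subunit Ifngr2 also had a difference of 0.16. Socs1, a feedback inhibitor, had 2.71 and 1.82 (difference -0.55), and Jak1, the kinase with the highest level, had 116.1 and 108.3 (difference -0.10). The 7 NF-κB genes had a median difference of 0.02. Their largest increase was that of the subunit Rel, at 0.14 with an interval that included 0. Their largest decrease was that of the inhibitor Nfkbia, at -0.12 with an interval of -0.20 to -0.04. Of the 7, the interval lay above 0 for 1 and below 0 for 1, beside 23.8% and 17.4% of the 11253 genes. The 1 above 0 was Tnfaip3, named after its value was seen, with an interval that began at 0.0098. Of these 15 genes, 0 were past 1 in either direction, near the 0.791% and 0.373% over all 11253 genes. Among the 8 interferon-γ genes the interval lay above 0 for 3 and below 0 for 4, beside 23.8% and 17.4%. That of Stat3, named after its value was seen, ended at -0.0053. This is within the rounding of the deposited values, up to 0.01 on a difference, which the intervals leave out.

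Genes that act on PD-L1 protein had differences from -0.19 to 0.47. Of 9 listed, all at an FPKM of at least 1, 6 were higher and 3 were lower, with a median difference of 0.05. Over the 11253 genes, 53.5% were higher. The interval lay above 0 for 4 of the 9 and below 0 for 3, beside 23.8% and 17.4% of the 11253 genes, respectively. Intervals leave out the rounding of the deposited values, up to 0.01 on a difference. Those of Spop and Cmtm6, both named after their values were seen, began at 0.0006 and 0.0076, within that rounding. B3gnt3, which extends glycans on PD-L1, had an FPKM of 1.65 and 2.33 (difference 0.47). Stub1, an E3 ubiquitin ligase, had 40.1 and 35.2 (difference -0.19). Stt3a, a subunit of the oligosaccharyltransferase, had 221.2 and 196.6 (difference -0.17).

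**Figure D5:**
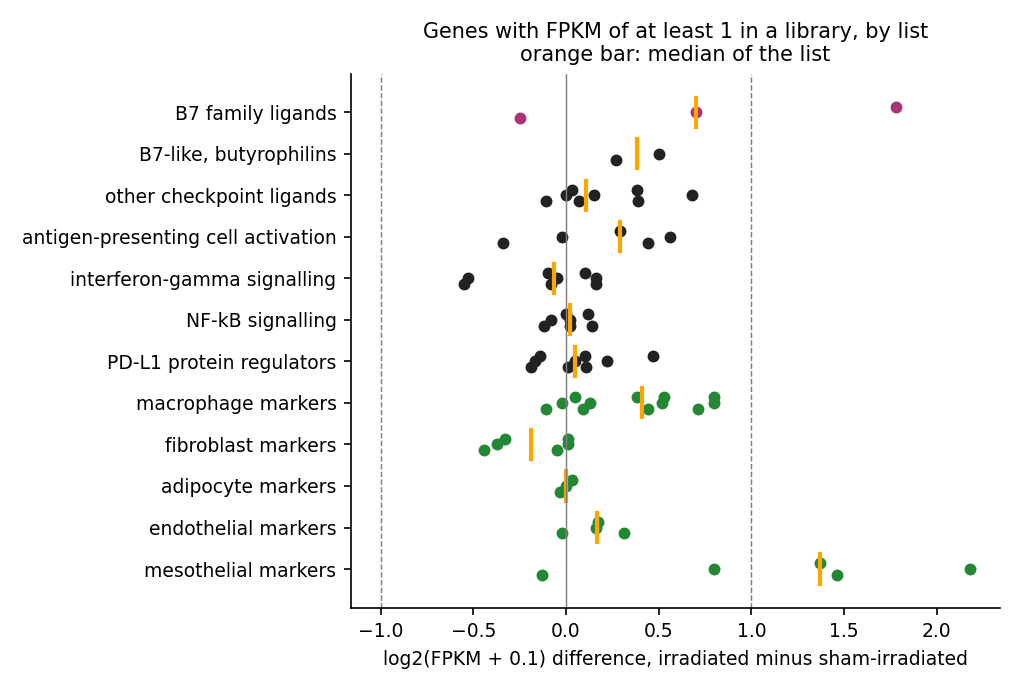
Difference between the libraries on the log2(FPKM + 0.1) scale for each gene that reached an FPKM of 1, by list, with the median as an orange bar and dashed lines at -1 and 1. B7 ligands are purple, pathway genes black, and cell type markers green. Cd80 (1.78) and 3 mesothelial markers lay past 1, and no other gene shown did.

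The genes beside the members on the chromosome were also examined. Adprh ends 2.87 kb before Cd80 and had a difference of -0.05, and Timmdc1 starts 2.10 kb after it and had a difference of 0.01. The nearest gene on either side did not have the higher value of Cd80. Cd80 was picked for its large difference and 94.25% of the 11253 genes differed by less than 0.5, so nothing is read from this. Plgrkt, 5.57 kb before Cd274, had a difference of 0.15 with an interval that included 0, and Ric1, after Pdcd1lg2, had -0.05. Jak2, a kinase of the same region that ends 54.4 kb before Cd274 and was named after its value was seen, had an FPKM of 78.1 and 54.1 (difference -0.53). On chromosome 19, Jak2, Cd274, and Pdcd1lg2 thus had differences of -0.53, 0.70, and 0.01. The genes beside Icosl were Dnmt3l (-0.18) and D10Jhu81e (0.01). Those beside Cd276 were 6030419C18Rik (-0.02) and Nptn (0.04), and Man1a2 (0.02) and Trim45 (0.11) lay beside Vtcn1. All 6 had intervals that included 0. Casr and Ildr1, beside Cd86, had 0 and at most 1 fragment.

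The genes most like Cd80 were taken as those whose difference was nearest to 1.78 over the 2 libraries, among 10949 other genes that reached an FPKM of 1 after genes with predicted or RIKEN names were left out. They were Ifit3 (1.77), Tnfsf15 (1.80), Gprc5a (1.74), Rsad2 (1.73), and Anxa8 (1.68). Among those left out, 4833427G06Rik had the same difference as Cd80, 1.78. Ifit3 and Rsad2 are interferon-induced antiviral genes, and Ifit3 has a near-identical copy with which it may share fragments. Tnfsf15 encodes a cytokine that costimulates T cells and had an FPKM of 2.67 and 9.55, levels close to those of Cd80. Likeness over 2 libraries is the size of 1 difference only, and nothing about shared control can be read from it.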

How the data were processed

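RNA sequencing values of 2 libraries, 1 per condition, were analysed. Per gene, with its coordinates and length, the authors deposited log2(FPKM + 0.1) to 2 decimals, from polyadenylated RNA and a stranded preparation. The submitters' processing notes name mm10. The aligner, the counter, and filters were not given in the sources used here. The members and the gene lists were chosen with earlier results of these data known.

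FPKM was recovered from the deposited log2 values, and each depth as the total that made low values whole fragments. All 2570 and 2518 genes used lay within 0.12 of a whole fragment. Rounding leaves abundant genes less exact (Cd276 by up to 4.37 fragments), and the intervals do not include it. Ratio intervals are 95% Clopper-Pearson, level intervals exact Poisson, and ratios between genes conditional exact odds ratios. With 1 library per condition, no test was run and no p-value was computed. A count of 0 allows 3 fragments.

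Genes named were all members, the largest increase, largest decrease, and highest level of each pathway list among genes that reached an FPKM of 1, the first and highest marker of each cell type, the nearest genes on each side of members, and the 5 genes nearest to Cd80 in difference. Neutrophil markers (30 and 20 fragments in sum) and endothelial markers (median difference 0.165) were listed as well. A further B cell marker is not reported here. Alternatives were a pseudocount of 1 or none, an FPKM of at least 5 or no filter, a threshold of 2, centring, scaling without the 100 most abundant genes, and macrophage markers in place of Cd80. Promoters came from RefSeq (GRCm38.p6, 6 of 7 members matched, Cd86 not) and transcripts from GENCODE M21. SciPy 1.17.1, pandas 2.3.3, and numpy 2.4.6 were run under Python 3.11.15, with figures from matplotlib 3.10.9.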

Additional observations from a re-analysis of the deposited data

How the results depend on the processing

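No paired analysis was possible because a condition held a single library, and leaving out a replicate was not possible for the same reason. Of 28 differences of members recomputed under 4 alternatives, 26 stayed within their counting interval. None whose interval excluded 0 changed sign, while Pdcd1lg2, at 0.01 as deposited, was -0.01 when centred and -0.00013 without the 100 most abundant genes. With log2(FPKM + 1), the difference was 1.47 for Cd80 and 0.19 for Vtcn1, since a larger pseudocount shrinks the differences of low genes. Relative to the summed macrophage markers in place of Cd80, the value of Cd274 changed sign to 0.57, or 0.35 without Lyz2, and the values were -0.28 and -0.49 for Cd86, -0.11 and -0.33 for Pdcd1lg2, -0.88 and -1.10 for Icosl, and -0.39 and -0.61 for Cd276. Leaving out Lyz2 was chosen after seeing the data. As deposited, 89 genes were higher and 42 lower by at least 1. These counts were 267 and 148 without a filter, 23 and 10 with an FPKM of at least 5, 29 and 17 with log2(FPKM + 1), and 11 and 8 with a threshold of 2, and they stayed within 1.5 times the main count under both scalings. The medians of 10 lists stayed, in all 47 recomputations, within the 95% order-statistic range of their genes. For every list but the PD-L1 protein regulators and the macrophage markers, that was the full range of the genes. A recomputed median could hardly leave it, so nothing about stability is read from this. The shift of all genes was -0.016 (log2) when the 100 most abundant were kept out of the scaling. Depth limits Pdcd1lg2, Vtcn1, and the receptors, with at most 53 fragments per library apart from Rgmb.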
